A study of Caenorhabditis elegans with 2 samples.

Results

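The 8 genes cct-1 to cct-8 encode the subunits of the cytosolic chaperonin CCT (also called TRiC) in Caenorhabditis elegans. They were taken by name from the RefSeq annotation of assembly WBcel235, and each matched a single gene among 19983 protein-coding genes. The rule itself uses no signal value, but the genes were proposed with earlier results of these data known. Regions were read from chromatin immunoprecipitation followed by sequencing (ChIP-seq) of LSY-27, a transcription factor with C2H2 zinc fingers that is known for making the left and right ASE taste neurons differ. A region counted for a gene when its summit fell in a window that began 1000 bp upstream of the annotated 5′ end and ended 200 bp past it.

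CCT is a barrel of stacked rings in which each ring holds every subunit in a fixed place. It takes newly made proteins into its cavity and folds them with the energy of ATP. Actin and tubulin are its classic substrates, and prefoldin hands them over. All subunits are needed for the complex. In C. elegans many transcripts receive a spliced leader at their 5′ end, so an annotated 5′ end can lie downstream of the place where transcription starts.

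The chromatin came from whole young adult hermaphrodites of strain OP401, a transgenic line that stably expresses LSY-27 with a C-terminal GFP-FLAG tag; the age was given as unknown. Immunoprecipitation was described as anti-GFP, although the antibody label names lsy-27. There was 1 group with 2 biological replicates, numbered 2 and 3, both from the same line, and no contrasting strain, stage or treatment. Whole animals do not separate tissues, and the labels did not state what drives the transgene. Neither the labels nor the deposited text gave a read depth. The control was not analysed here. With a single group no test between conditions could be made, so counts for the cct genes are read beside the share of all protein-coding genes, without a p-value.

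The deposited lists in build ce11 were used, each with the authors' own signal value per region. The thresholded list, filtered by irreproducible discovery rate (IDR), held 342 regions. The pooled relaxed list held 30000 regions, which include weak regions and background. The relaxed lists of replicates 2 and 3 held 12414 and 29326 regions. The thresholded regions were exactly the 342 highest signal values of the pooled list, with a lowest value of 22.1. Signal values are compared only within a list, since neither the labels nor the deposited text gave their scaling.

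A thresholded region was found at 3 of the 8 genes, cct-5, cct-7 and cct-8, against 1.13% of all protein-coding genes (226 of 19983). All protein-coding genes include those of the mitochondrial genome. A pooled relaxed region was found at all 8, against 41.5% of protein-coding genes. In each case the strongest pooled summit lay upstream of the 5′ end, between −488 and −148 bp (negative positions are upstream), and between protein-coding genes. The order of the pooled signal values was cct-8 (36.4), cct-5 (23.6), cct-7 (23.2), cct-2 (12.8), cct-1 (12.1), cct-4 (10.6), cct-6 (7.42) and cct-3 (5.52). The thresholded genes cct-5 and cct-7 differ by little in this order, and the next gene, cct-2, ranked 1368 in the pooled list. There is no error for a pooled value, so neighbours in the order can be compared only through the replicates. In replicate 3 the values of cct-5 (10.2), cct-2 (9.06) and cct-1 (8.73) were close together.

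**Figure D1:**
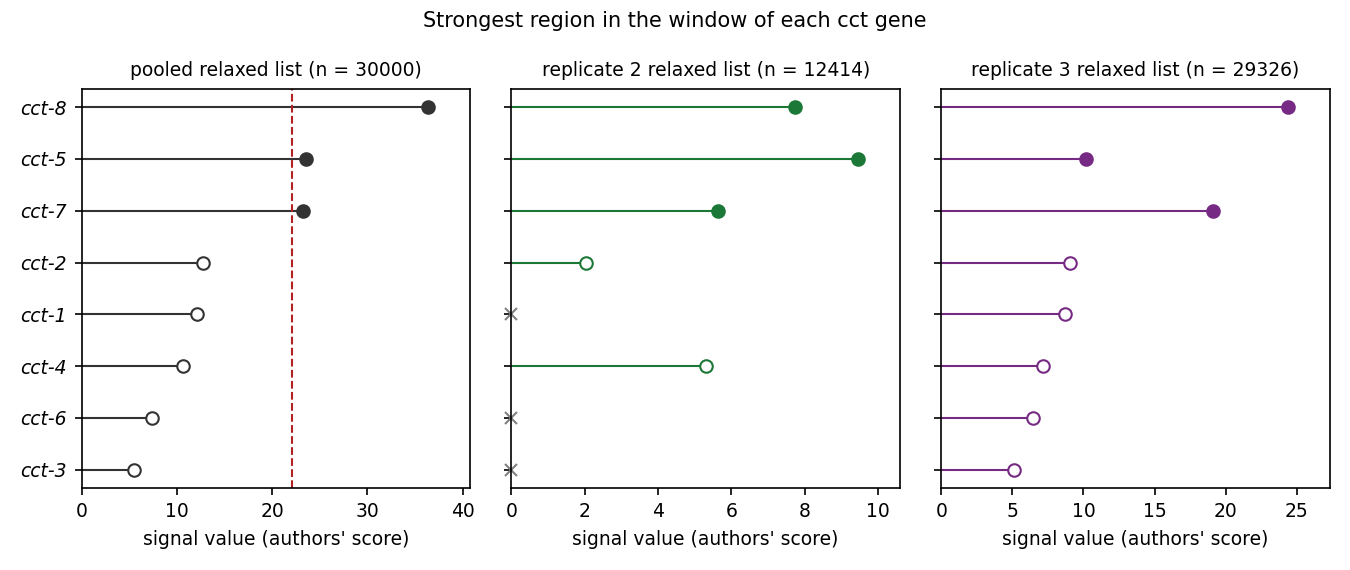
Signal value (authors' score, horizontal axis) of the strongest region in the window of each cct gene, in the pooled relaxed list and in the relaxed list of each replicate. Filled points are genes with a thresholded region, open points the others, grey crosses mark genes with no listed region, and the dashed line is the lowest thresholded signal, 22.1. All 8 genes have a value in replicate 3, while cct-1, cct-3 and cct-6 have none in replicate 2, and the replicate 2 value of cct-4 comes from a region inside the neighbouring gene nst-1.

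The theta subunit gene cct-8 had the strongest region. In C. elegans, raised cct-8 expression is known to increase CCT assembly and to lengthen life. The gene (Y55F3AR.3) lies on chromosome IV at 1087108 to 1093920, on the minus strand. Its region spanned 1094242 to 1094557 with a signal of 36.4, rank 65 of 342, and its summit was at −480 bp. Only 29 protein-coding genes (0.145%), with those of the mitochondrial genome included, had a higher pooled signal in their window. In replicate 2 the region had a signal of 7.74 and rank 479 of 12414, with the summit at −447 bp. In replicate 3 it had a signal of 24.4 and rank 81 of 29326, at −449 bp. The region therefore stood high in both replicates, and relatively higher in replicate 3.

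The epsilon subunit gene cct-5 and the eta subunit gene cct-7 had thresholded regions near the lower end of the list. Changes in the human counterpart of cct-5 are known to cause a sensory neuropathy. The gene cct-5 (C07G2.3) lies on chromosome III at 4499188 to 4508114, on the minus strand, and its region at 4508390 to 4508705 had a signal of 23.6, rank 275, with the summit at −434 bp. In replicate 2 its signal was 9.46, rank 242, the highest of the cct genes there. In replicate 3 it was 10.2, rank 1042, below both cct-8 and cct-7. The gene cct-7 (T10B5.5) lies on chromosome V at 1872246 to 1875505, on the plus strand, and its region at 1871778 to 1872093 had a signal of 23.2, rank 296, with the summit at −310 bp. Its replicate order was the opposite of that of cct-5, with a signal of 5.64 and rank 1299 in replicate 2 and a signal of 19.1 and rank 169 in replicate 3. The order of the thresholded genes among themselves thus differed between the replicates.

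The sequences under these 3 summits are shown because they carry the thresholded signal. Each is 201 bases long, centred on the summit, and reads 5′ to 3′ on the strand of the cct gene, from the RefSeq sequence of WBcel235 (ce11). Capitals mark a pair of heat shock units, described further on, and lower-case sequences hold none. The cct-8 sequence is chrIV:1094300-1094500, minus strand, the cct-5 sequence chrIII:4508448-4508648, minus strand, and the cct-7 sequence chrV:1871836-1872036, plus strand.
cct-8: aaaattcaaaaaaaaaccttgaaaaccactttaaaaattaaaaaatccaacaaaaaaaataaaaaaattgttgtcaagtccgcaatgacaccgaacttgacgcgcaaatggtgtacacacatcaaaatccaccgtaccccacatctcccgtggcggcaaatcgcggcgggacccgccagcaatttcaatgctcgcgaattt
cct-5: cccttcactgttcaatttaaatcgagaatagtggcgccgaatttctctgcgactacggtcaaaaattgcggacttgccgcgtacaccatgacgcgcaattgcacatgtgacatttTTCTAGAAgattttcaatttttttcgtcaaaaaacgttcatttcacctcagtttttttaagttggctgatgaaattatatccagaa
cct-7: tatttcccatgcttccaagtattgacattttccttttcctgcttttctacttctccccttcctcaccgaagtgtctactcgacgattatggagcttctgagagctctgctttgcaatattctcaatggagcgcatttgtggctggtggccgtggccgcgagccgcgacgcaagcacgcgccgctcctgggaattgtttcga
The GC content was 40.8% for cct-8, 38.8% for cct-5 and 51.7% for cct-7, against a median of 35.8% over 8603 pooled summits in nuclear protein-coding windows (5th to 95th percentile 26.4 to 48.8). The window of cct-7 is thus above the 95th percentile in GC, and the other 2 are inside the usual range.

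The 5 remaining subunit genes had weaker regions that did not reach the thresholded list. The beta subunit gene cct-2 (T21B10.7, chromosome II, 8927741 to 8929815) had its pooled region at 8927264 to 8927579, with the summit at −319 bp. In replicate 3 that region had a signal of 9.06 and rank 1443, and in replicate 2 a signal of only 2.03 and rank 12176 of 12414, close to the end of the list. Its pooled −log10 q-value was 3.47, the highest value in the list, which 1484 pooled regions shared. The highest q score was therefore reached at 4 of the 8 genes, cct-2, cct-5, cct-7 and cct-8, against 5.06% of protein-coding genes.

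The alpha subunit gene cct-1 (T05C12.7, chromosome II, 8185443 to 8187601) had its pooled region at 8185043 to 8185358, with the summit at −242 bp. In replicate 3 the signal was 8.73, rank 1561, and replicate 2 had no summit in the window. The pooled list had 3 summits within the gene, all in its coding sequence. The genes cct-5 and cct-3 had 7 and 4 pooled summits within them, with highest signals of 9.88 and 5.31. They are 8927 and 10000 bp long, against 2159 bp for cct-1. No background over all genes was computed for counts within genes. The strongest within cct-1, at 1115 bp downstream of the 5′ end, had a pooled signal of 11.6, close to the value at the promoter. In replicate 3 the matching region at 1147 bp had a signal of 11.2 and rank 801, higher than at the promoter. Replicate 2 listed no matching region, and its only summit within the gene, at 692 bp, had a signal of 3.55 and rank 4390.

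The delta subunit gene cct-4 (K01C8.10, chromosome II, 8283667 to 8285711) had its strongest pooled region at 8283361 to 8283676, with the summit at −148 bp. Both replicates listed that summit, at −146 bp with a signal of 2.82 and rank 7061 in replicate 2, and at −141 bp with a signal of 7.17 and rank 2751 in replicate 3. Replicate 2 had a stronger region in the window, with a signal of 5.32 and rank 1550, but its summit at −813 bp lay in the coding sequence of nst-1, the nucleostemin homologue. A pooled region past the 3′ end, 2153 bp downstream of the 5′ end, had a signal of 12.8, higher than at the promoter of cct-4. The replicates did not show this order. In replicate 3 the overlapping region, at 2303 bp, had a signal of 4.05 and rank 11153, lower than at the promoter. Replicate 2 listed no region there.

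The zeta subunit gene cct-6 (F01F1.8, chromosome III, 5853530 to 5855687) and the gamma subunit gene cct-3 (F54A3.3, chromosome II, 2233540 to 2243539) had the lowest values. For cct-6 the pooled summit was at −304 bp and the replicate 3 signal was 6.43, rank 3777. A stronger pooled region, with a signal of 9.76, had its summit at −1133 bp, just outside the window and nearer to the next gene, alh-9. For cct-3 the pooled summit was at −488 bp and the replicate 3 signal was 5.10, rank 6832. Replicate 2 listed no region in the window of either gene. The region of cct-3 was also the only one of the 8 with repeated sequence, since 47.7% of its 32-mers occurred once in the genome, against 100% for the other 7. The labels did not state how reads from repeated sequence were placed.

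**Figure D2:**
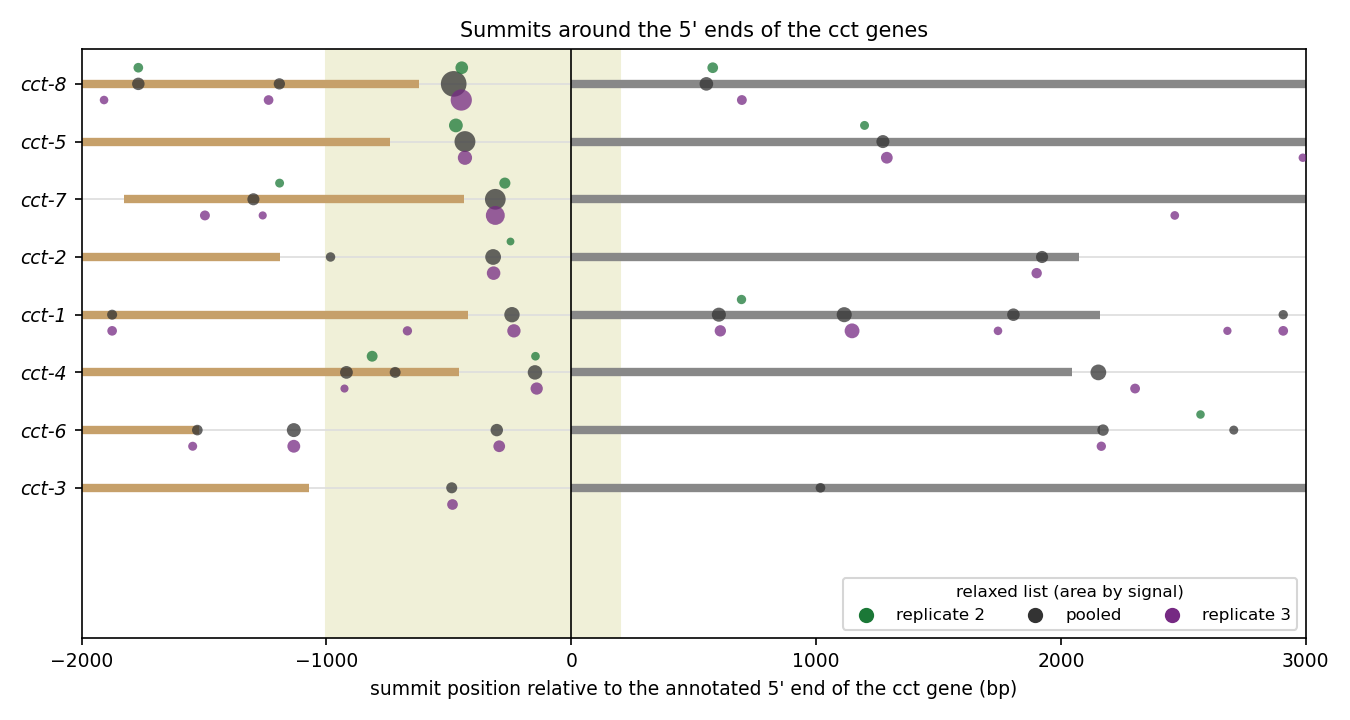
Summits of the pooled, replicate 2 and replicate 3 relaxed lists within 2000 bp upstream and 3000 bp downstream of each cct 5′ end. Areas are in proportion to the signal plus a constant, by the same formula for all lists. The scaling of the signal was not given, so areas are compared only within a list. Grey bars are the cct genes, brown bars the nearest upstream protein-coding genes, no other genes are drawn, and the shaded band is the window that began 1000 bp upstream and ended 200 bp downstream. In each row the strongest pooled summit of the band lies between −488 and −148 bp.

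Counted by replicate, a region in the window was listed at 8 of 8 genes in replicate 3, against 39.9% of protein-coding genes, and at 5 of 8 in replicate 2, against 21.2%. The 5 genes with a region in both replicates were cct-2, cct-4, cct-5, cct-7 and cct-8, against 13.2% of protein-coding genes. The lists differ in length, and with the strongest 12414 regions of each replicate the count was again 5, against 9.61% of protein-coding genes. This setting shortened only the list of replicate 3. It could not remove cct-2, which counts through a replicate 2 region of rank 12176. Among the 342 strongest regions, replicate 2 had cct-5 alone of the 8 (1.22% of protein-coding genes), and replicate 3 had cct-7 and cct-8 (1.09%). No cct gene was among the 342 strongest regions of both replicates. The summits of the 3 thresholded genes were stable in position, moving by 33 bp for cct-8, 37 bp for cct-5 and 39 bp for cct-7 over the pooled and both replicates' lists.

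Set among the protein-coding genes with a pooled region, the cct genes lay in the upper part of the range, with the exception of cct-3. Their median highest pooled signal was 12.5, against 5.80 over the 8295 protein-coding genes with a pooled region. The median was also 5.80 over the 8283 nuclear ones. Of the 8295 genes, 0.350% were above cct-8, 2.01% above cct-5 and 2.22% above cct-7. For cct-2, cct-1 and cct-4 the shares were 11.3%, 12.8% and 16.8%, and for cct-6 33.5%. The share above cct-3 was 53.7%, so its value was near the middle. All 8 genes had a region in the stronger part of the pooled list, at or above its median signal of 4.78, against 26.6% of protein-coding genes. The median position of the summits was −314.5 bp for the cct genes and −304 bp for all protein-coding genes with a pooled region. All 8 cct summits lay 100 to 500 bp upstream, as did 44.3% of the summits of those genes, and 86.8% of the latter were upstream of the 5′ end.

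**Figure D3:**
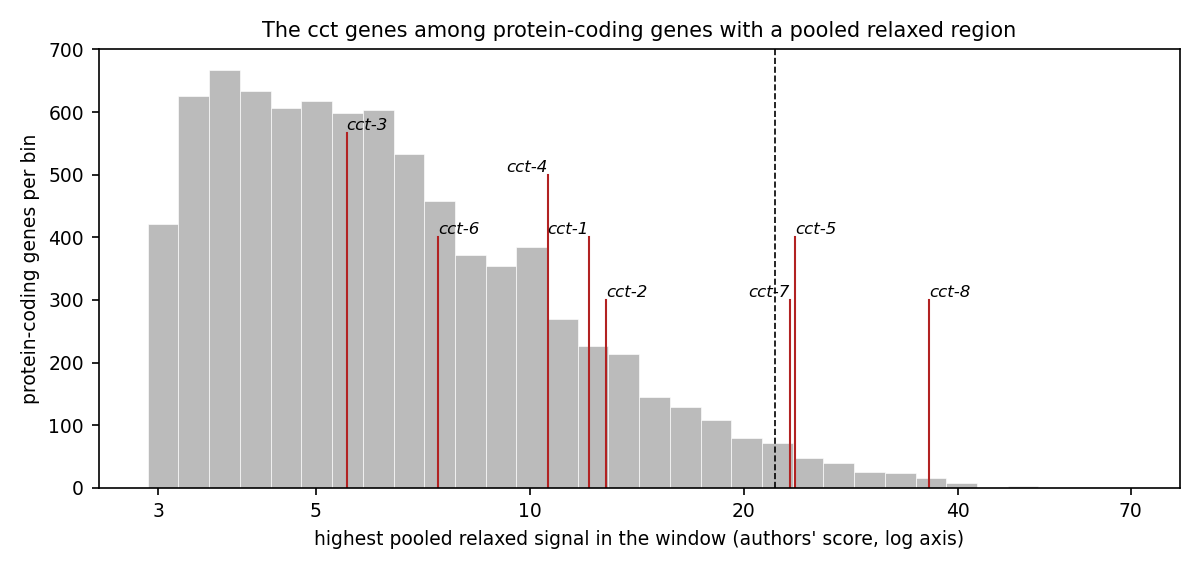
Highest pooled relaxed signal in the window (authors' score, log axis) for the 8283 nuclear protein-coding genes with a pooled region, as the number of genes per bin. Red lines mark the cct genes and the dashed line the lowest thresholded signal; cct-5, cct-7 and cct-8 lie to its right, and cct-3, at 5.52, lies near the median of 5.80.

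Each cct gene had a head-to-head neighbour, which bears on which gene a summit belongs to. For all 8 the nearest protein-coding gene upstream was on the opposite strand, against 45.4% of nuclear protein-coding genes (9058 of 19966). The gap to it ranged from 419 bp at cct-1 to 1521 bp at cct-6, with a median of 680 bp, against 1570 bp over all genes in this arrangement. Among genes in that arrangement 45.3% had a pooled relaxed region and 1.68% a thresholded one, against 41.5% and 1.13% of all protein-coding genes. The 4102 genes in that arrangement with a pooled region had a median highest signal of 6.27, against 12.5 for the cct genes.

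In 7 of the 8 cases the strongest pooled summit also lay in the window of the upstream gene. The cct-8 summit was at −141 bp from Y55F3AR.2, annotated as a thioredoxin domain protein, and so nearer to it than to cct-8. The cct-5 summit was at −307 bp from the kinase domain gene F25F2.1, and the cct-7 summit at −129 bp from T10B5.4, annotated as an aralkylamine N-acetyltransferase. Both were likewise nearer to the neighbour. The same held for cct-1, whose summit was at −178 bp from mig-5, a dishevelled homologue of Wnt signalling. The summits of cct-2, cct-3, cct-4 and cct-6 were nearer to the cct gene, with the neighbours B0457.2 at −871 bp, F54A3.6 (a homologue of the trithorax group protein osa) at −582 bp, nst-1 at −311 bp and alh-9 at −1218 bp. A region at a head-to-head promoter cannot be given to either gene from these lists. Over the whole thresholded list, 61 of 150 nuclear summits in a protein-coding window lay in the windows of at least 2 genes.

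The cct summits lay far from tRNA, snRNA and snoRNA genes. The nearest such gene was the snoRNA gene Y32G9A.15, 17974 bp from the cct-7 summit, and the farthest was 323576 bp away, for cct-3. Within 500 bp the annotation had non-coding RNA genes of no named class at 2 summits. The cct-7 summit was 44 bp upstream of T10B5.13, and the cct-8 summit lay 313 bp past the start of Y55F3AR.4. That gene spans 1094087 to 1094209 on the plus strand, so the cct-8 summit at 1094400 lay beyond its 3′ end. No cct gene is on the X chromosome.

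Within the thresholded list the cct regions stood beside promoters of varied kinds. Ordered by signal among the 150 nuclear promoter regions, cct-8 was at place 14, cct-5 at 112 and cct-7 at 124. Directly above cct-8 stood the region of larp-1 and wip-1 on chromosome III with a signal of 37.1, and directly below it srh-269, a chemosensory receptor gene, with 36.2. The neighbours of cct-5 were F59C6.18 and the region shared by the ribosomal protein gene rps-12 and ska-3, which differed from it by 0.0066 and 0.016 in signal. The neighbours of cct-7 were tex-2 and the region of gpap-1 and scpr-1, which differed from it by 0.025 and 0.065. This likeness is a difference of a single value within 1 list.

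Short sequence patterns were searched on both strands in the 201 bases around each pooled summit and in the 301 bases that begin 250 bp upstream of each 5′ end and end 50 bp past it. Heat shock factor binds units of GAA in alternating orientation, and chaperone genes are known targets, so pairs of units were searched as GAANNTTC and TTCNNGAA, where N is any base. These patterns read the same on both strands and can overlap by a shared unit. A pair was found at the summit of 5 of the 8 genes, cct-1, cct-2, cct-4, cct-5 and cct-6. Over all 8603 pooled summits in protein-coding windows 22.8% had a pair, and over the 150 thresholded ones 20.7%. In the window at the 5′ end a pair was found at 7 of the 8 genes, all but cct-2, against 32.7% of 19971 protein-coding 5′ ends. Taking both windows, all 8 genes had a pair, against 42.6% of the nuclear protein-coding genes with a pooled region and 107 of the 214 with a thresholded one. Around the summits the share was therefore no higher in thresholded promoter regions than in pooled ones. Taking both windows, the share was higher for genes with a thresholded region (50%) than for those with a pooled one (42.6%).

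The windows of the 8 genes held 14 pairs, of which 1 for each gene is shown with 12 bases on each side, to let the units be compared. The pair shown is the one found in the searched windows that starts nearest to the summit of its gene, a choice made after the matches were seen. Capitals mark the pair, and each sequence reads 5′ to 3′ on the strand of the cct gene. The positions in ce11 are chrII:8185239-8185270 for cct-1, chrII:8927463-8927494 for cct-2, chrII:2233506-2233537 for cct-3, chrII:8283489-8283520 for cct-4, chrIII:4508514-4508545 for cct-5, chrIII:5855907-5855938 for cct-6, chrV:1872020-1872051 for cct-7 and chrIV:1094090-1094121 for cct-8. The genes cct-5, cct-6 and cct-8 are on the minus strand and the others on the plus strand.
cct-1: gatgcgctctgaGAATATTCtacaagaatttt
cct-2: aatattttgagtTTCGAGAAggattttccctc
cct-3: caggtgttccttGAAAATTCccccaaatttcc
cct-4: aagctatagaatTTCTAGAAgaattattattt
cct-5: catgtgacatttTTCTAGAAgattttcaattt
cct-6: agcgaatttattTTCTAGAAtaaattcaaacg
cct-7: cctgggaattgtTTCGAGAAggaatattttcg
cct-8: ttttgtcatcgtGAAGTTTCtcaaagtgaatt
The pairs shown for cct-4, cct-5 and cct-6 have the same 8 letters, TTCTAGAA, and those for cct-2 and cct-7 share TTCGAGAA. Which pairs match depends on the choice, since cct-5 also held TTCGAGAA and, like cct-1, GAATATTC. The pair of cct-5 starts 15 bp from its thresholded summit, on the side of the gene, and that of cct-4 starts 18 bp from its summit, on the far side. Within the searched windows the nearest pair of cct-7 starts 96 bp from its thresholded summit, and that of cct-8 starts 291 bp away. The sequence between the summit window and the 5′ window of cct-3, cct-5 and cct-8 was not searched.

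The other patterns gave few matches around the summits. The TATA box core TATAAA was found at none of the 8 genes, against 22.4% of all pooled promoter summits and 10.7% of the thresholded ones. A run of 6 T was found at cct-3, cct-5 and cct-8, against 66.1% and 64.7%. The pattern GGCGGG was found at cct-8 alone, against 5.15% and 11.3%. Repeats of GA, searched as 6 bases, were found at none, against 16.8% and 24%.

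The B box core of tRNA genes, GGTTCG, was found at the summit of cct-2 alone, against 4.18% of pooled and 14.0% of thresholded promoter summits. In the windows at the 5′ ends it was found at cct-6 alone (3.88% of protein-coding 5′ ends). There the TATA box core was found at cct-2 and cct-8 (38.0%), and GGCGGG and the GA repeat at none of the 8 (6.42% and 21.8%). A run of 6 T was found in these windows at cct-2, cct-3, cct-6 and cct-8 (80.2%). A match describes letters, and its absence says only that those letters are not in the window.

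Genes that work with CCT or resemble it were counted in the same way. Over all protein-coding genes, 41.5% had a pooled relaxed region and only 1.13% a thresholded one. For prefoldin, which passes actin and tubulin to CCT, 5 of 6 genes had a pooled relaxed region and none a thresholded one. The highest prefoldin value was at pfd-3 with 14.7, and replicate 2 had no region there. Among the tubulins, substrates of CCT, 10 of 16 had a pooled region, and tba-2, an alpha tubulin gene, had a thresholded one with a signal of 22.7. All 5 actin genes had a pooled region, with a highest value of 19.0 at act-2 and a median of 3.96, which is below the 5.80 of all genes with a region.

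Other chaperone lists ranged from a pooled region at every gene to one at 8 of 16 genes or 2 of 4. These counts stand beside the same shares of all protein-coding genes, 41.5% pooled and 1.13% thresholded. The HSP70 and HSP110 list had them at 7 of 7 genes, with hsp-1, the constitutive cytosolic HSP70 gene, in the thresholded list at 22.2. The HSP90 and co-chaperone list had 10 of 10, none thresholded, with a highest value of 15.5 at ahsa-1, an activator of the HSP90 ATPase. Replicate 2 had no region at ahsa-1. The mitochondrial chaperonin gene hsp-60 and Y22D7AL.10, its co-chaperonin gene, shared 1 thresholded region with a signal of 27.5. Of the 29 J-domain genes, which assist HSP70, 24 had a pooled region and none a thresholded one, and the highest was dnj-19 with 18.7. The small heat shock proteins had pooled regions at 8 of 16 genes, highest at hsp-16.20 with 12.1. Of the 4 regulators of the heat shock response, 2 had one, with hsb-1, a binding protein of heat shock factor, at 10.9. The median highest signal over genes with a region was 12.5 for CCT and between 3.96 and 9.0 for these lists other than the mitochondrial chaperonin pair.

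**Figure D4:**
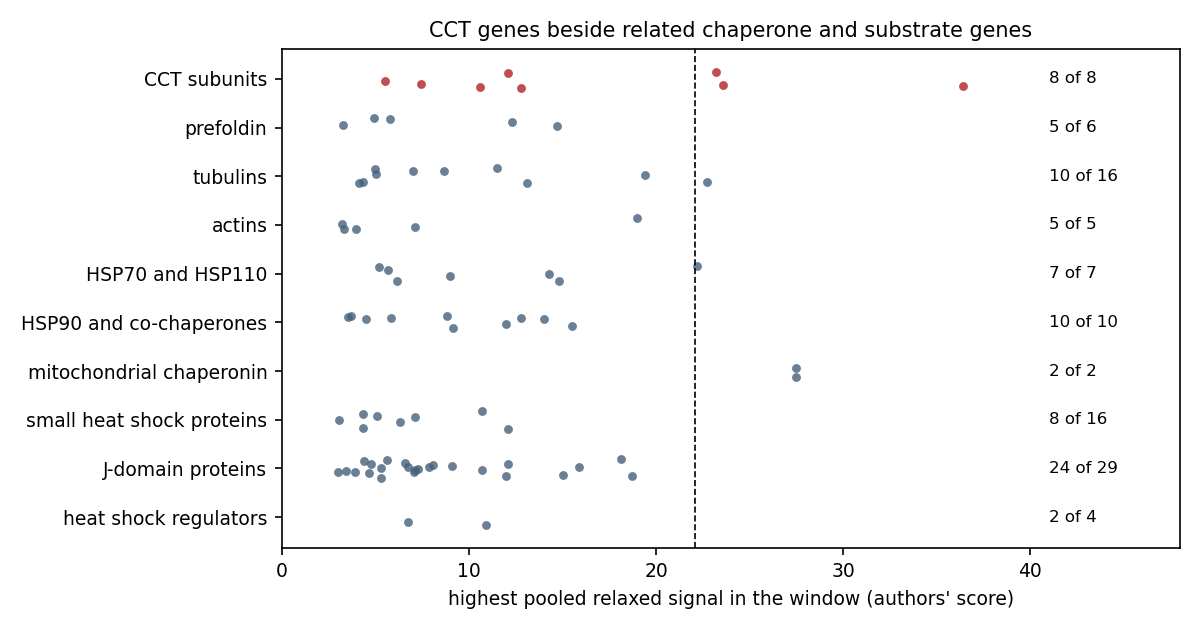
Highest pooled relaxed signal in the window (authors' score) of each CCT gene (red) and of each gene in 9 related lists (blue), with the number of genes that had a pooled region at the right and vertical jitter for legibility. The dashed line is the lowest thresholded signal, 22.1; 3 CCT genes, tba-2, hsp-1 and the shared region of the mitochondrial chaperonin genes lie past it.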

How the data were processed

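The ce11 lists of regions in narrowPeak format were read, plus the ce10 thresholded list for 1 check. Per the deposited text beside the lists, the authors called relaxed regions and background for each replicate and for the pooled replicates against a control, and thresholded them by IDR. The caller, aligner and settings were not stated there or in the labels. Column 7 is the deposited signal score, column 9 the deposited −log10 q-value and column 10 the summit. Summits were placed against RefSeq genes of WBcel235, the assembly of ce11. No test was run. The cct genes and the lists of related genes were chosen with earlier results of these data known. Named genes were the cct genes, genes that share or neighbour their summits, related genes with a thresholded region or the highest pooled signal of their list, and the promoter regions next in signal. The other tubulin and chaperone genes appear as counts. The summit assignment was tested on simulated data. Python 3.11.15, numpy 2.4.6, pandas 2.3.3 and matplotlib 3.10.9 were used.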

Additional observations from a re-analysis of the deposited data

How the results depend on the processing

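The count of cct genes with a thresholded region was read under other settings, with the share of all protein-coding genes in brackets. It was 3 with windows of 500 bp upstream to 200 bp downstream (0.881%) and 2000 bp upstream to 500 bp downstream (1.54%). It was 3 with any overlap of at least 1 bp (1.21%) and with the 5′ end of any transcript (1.18%). It was also 3 in the ce10 thresholded list of 330 regions, where regions were matched by chromosome and by signal within 0.01%, a check chosen after seeing the data. With signal at or above the median of the thresholded list it was 1, cct-8 (0.555%). With the strongest 342 regions of a single replicate it was 1 without replicate 3 (cct-5, 1.22%). It was 2 without replicate 2 (cct-7 and cct-8, 1.09%). The count with a pooled relaxed region was 8 under the narrower (31%) and wider (58.4%) windows. It was also 8 under overlap (46.4%), transcripts (44.2%) and the stricter signal (26.6%). With a single replicate's list it ranged from 5 (without replicate 3, 21.2%) to 8 (without replicate 2, 39.9%). The count with a region in both replicates was 5 in each alternative. The share of all protein-coding genes there ranged from 8.44% (narrower window) to 23.9% (wider window). No paired analysis was possible because there is a single group. No source used here gave read depth, so weak regions could not be told from limited depth.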
